A study of Homo sapiens with 6 samples.

Results

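The immune checkpoint ligands described here are 10 genes for proteins on the tumor cell surface that restrain or tune immune cells: CD274 (PD-L1), PDCD1LG2 (PD-L2), CD276 (B7-H3), VTCN1 (B7-H4), CD80, CD86, PVR (CD155), CD47, LGALS9 (galectin-9) and NT5E (CD73). They were chosen by name, and all probes carrying a member's gene name were taken, which gave 18 of 34127 probes and 10 of 25940 gene names. RNA was measured in 2 cell lines derived from T47Dco, a luminal breast cancer line that the sample labels give as T47D. Each line had 3 one-colour Agilent arrays, 1 sample to an array. The purpose was to compare the expression profiles of luminal and luminobasal tumor cells.

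pLUM is the pure luminal line, which has estrogen and progesterone receptors and lacks cytokeratin 5 (CK5). It came from a T47Dco xenograft tumor grown with estrogen (E) in ovariectomized, pre-pubertal NSG (NOD SCIDγ) mice. The tumor cells were cultured in 1 nM E for about 2 months and sorted as CLD3+ CD49f- cells. These were cultured in E for about 2 months more and resorted. On the arrays pLUM had received 1 nM E for 72 h. pLB is the pure luminobasal line, which lacks both receptors and carries CK5. It came from a T47Dco xenograft tumor grown with E and progesterone in such mice. The tumor cells were cultured under estrogen withdrawal (EWD) for about 2.5 months and sorted as CLD3- CD49f+ cells. These were cultured under EWD for about 2 months more and resorted, and pLB was under EWD on the arrays. Line, tumor of origin, time in culture and hormone therefore cannot be told apart, and each line is 1 derivation. The cells were stained for CK5 and sorted before RNA extraction, and the methods give the RNA as coming from triplicate sorts. Neither the CK5 fraction that went on the arrays nor separate cultures for the 3 samples of a line are given in the sources used. The p-values may therefore measure technical spread only.

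Checkpoint ligands work by contact with receptors on T cells, NK cells and macrophages. PD-L1 and PD-L2 bind PD-1, CD80 and CD86 bind CD28 and CTLA-4, PVR binds TIGIT, CD96 and the activating receptor CD226, and CD47 binds SIRPA on macrophages to block engulfment. NT5E acts otherwise, as an ectoenzyme that makes adenosine outside the cell, and in breast cancer B7-H3 and B7-H4 are known as ligands of tumor cells whose receptors are less well defined.

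The probes are shown first, because several results turn on what a probe can read. All are 60 bases long, and positions are those of the array files on hg19. The following lie away from the ends of their transcripts and are printed whole. That of CD274 lies at chr9:5465546-5465605, that of CD276 at chr15:73996699-73996758 and that of PVR at chr19:45162098-45162157, all on the plus strand. That of NT5E joins exons between 86176992 and 86181005 of chromosome 6 and that of CD47 joins exons between 107778363 and 107779622 of chromosome 3, on the minus strand. The pair for LGALS9 is shown because its probes gave different results, the first joining exons between 25974458 and 25975920 of chromosome 17 and the second lying at chr17:25967739-25967798.
CD274: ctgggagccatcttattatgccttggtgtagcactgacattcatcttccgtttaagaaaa
CD276: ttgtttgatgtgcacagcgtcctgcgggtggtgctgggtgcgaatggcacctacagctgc
PVR: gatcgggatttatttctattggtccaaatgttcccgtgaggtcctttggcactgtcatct
NT5E: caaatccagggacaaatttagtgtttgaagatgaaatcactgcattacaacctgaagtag
CD47: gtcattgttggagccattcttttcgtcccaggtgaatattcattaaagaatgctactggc
LGALS9, first probe: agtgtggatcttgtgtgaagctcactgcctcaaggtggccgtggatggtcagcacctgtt
LGALS9, second probe: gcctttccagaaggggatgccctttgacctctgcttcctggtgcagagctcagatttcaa

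For CD86 and VTCN1 the first 30 bases of the probe are given. The CD86 probe (chr3:121839246-121839305, plus strand) opens with a run of alternating g and a, in capitals. It is shown because 3 of the 5 other tested probes with its first 11 bases followed it across the arrays. The VTCN1 probe lies at chr1:117686598-117686657 on the minus strand.
CD86: GAGAGAGAGAGAaaaaagagagatcttgat
VTCN1: acagagttgacaaggcctatgggaaatgcc

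Levels are log2 intensities relative to the 75th percentile of the same array, so that 0 is the level of the 75th percentile and levels of different probes are not set against each other. A probe was tested when its signal was well above background on at least 3 of the 6 arrays, and was called when the lines differed by at least 2-fold with an adjusted p under 0.05 (limma, Benjamini-Hochberg over 23105 probes). A gene takes the result of its tested probe with the highest mean level. In 10 tested probes of 6 members, CD276 and PVR were called higher in pLB, against a background of 22.7% of all tested genes, and VTCN1 was called lower, against a background of 23.0%. CD86, LGALS9 and CD47 were not called. CD274, PDCD1LG2, CD80 and NT5E were not tested, since none of their probes passed.

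By probe, 7 of the 10 tested were called, beside 45.6% of all tested probes. The arrays of the lines did not overlap for 7 of the 10, beside 68.1% of all tested probes. Of the called probes, 2 (VTCN1 and the first LGALS9 probe) were well above background in 1 line only, and could pass only by differing. Over the 6 tested members the median difference was 0.44 on the log2 scale, whereas it was 0.04 over all 17670 tested genes. With 3 arrays per line, an exact permutation test of a single value cannot give a two-sided p below 0.1, and the adjusted p-values below are those of limma. Where a fold is given as a bound, the adjusted p beside it is that of the fit to the signals as read, not of the bound.

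**Figure D1:**
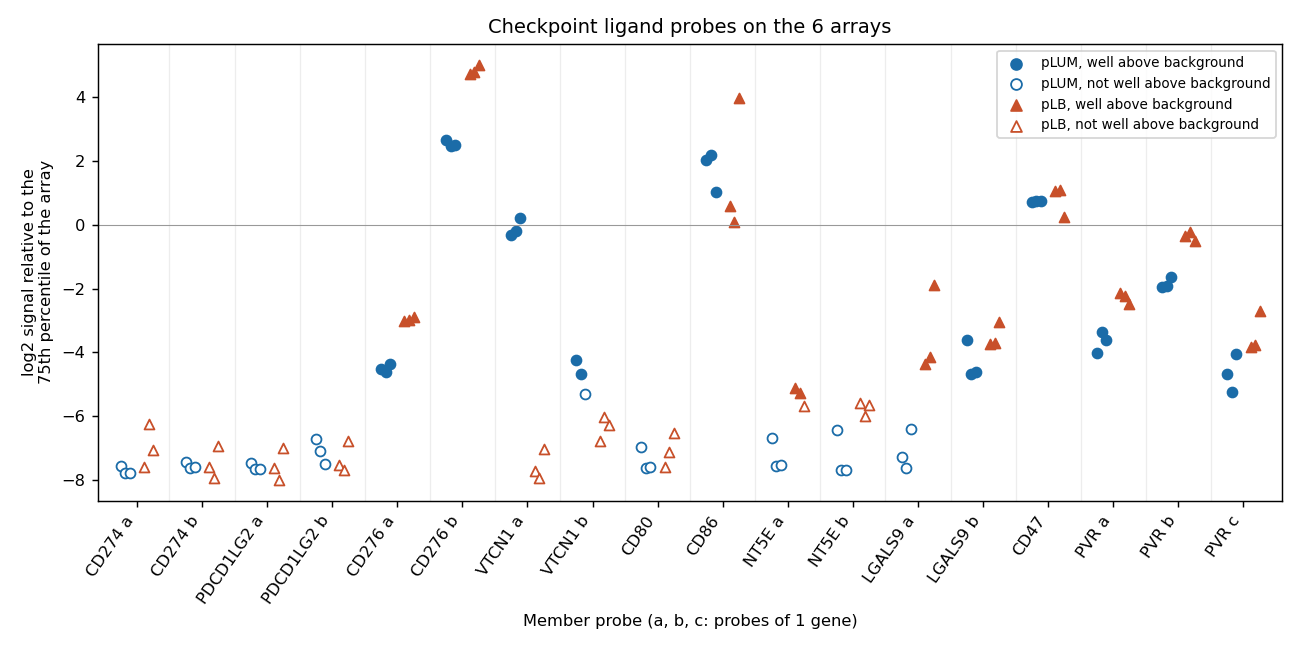
Levels of all 18 probes of the 10 members on the 6 arrays, as log2 signal relative to the 75th percentile of the array; circles are pLUM, triangles are pLB, and open symbols are signals that were not well above background. CD276 and PVR sit higher in pLB on every probe, VTCN1 is detected in pLUM alone, and CD274, PDCD1LG2 and CD80 have open symbols only.

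The arrays went with their labels. In pLB, KRT5, which encodes CK5, was higher by at least 1761-fold and EGFR by 7.49 on the log2 scale. PGR, the progesterone receptor, was lower by at least 67.5-fold, and CLDN3, on which the cells had been sorted, differed by -6.70. Correlations of arrays were 0.984 to 0.991 within pLUM, 0.972 to 0.989 within pLB and 0.780 to 0.806 between lines. All pLUM arrays and pLB replicate 1 shared a slide and a scan, and pLB replicates 2 and 3 shared another. Within the first slide, where pLB replicate 1 stands alone against the 3 pLUM arrays, differences on the log2 scale were 2.18 for CD276, 1.48 for PVR and -7.62 for VTCN1, and 0.57, 0.34 and -1.15 for LGALS9, CD47 and CD86. In bulk RNA, fewer cells that express a gene and less RNA per cell cannot be told apart.

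Markers of leukocytes, which also carry several of these ligands, were measured in both lines. Of 16 such markers 15 had a probe, 8 were well above background on all 6 arrays, and CD2 was above background on none. CD3E, which defines T cells, was above background on 2 arrays, MS4A1 and CD163 on 1 each, and PTPRC (CD45) on all 6 with no call (-0.47, adjusted p = 0.42; a dimmer probe was lower in pLB, -1.20, and its other 3 probes were above background on no array). The summed level of the markers, in multiples of the 75th percentile, was 1.79 to 2.68 in pLUM and 16.5 to 35.5 in pLB, and without CD79A it was 0.937 to 1.27 and 1.36 to 1.66. CD3D, CD68 and CD79A were called higher in pLB, and COL1A2 (at least 11.5-fold) and VWF (at least 1.80-fold) of 6 endothelial and fibroblast markers. Both lines are sorted tumor cell lines, and neither the source of these signals nor their part in the results was tested.

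CD276 encodes B7-H3, a member of the B7 family whose receptor is not settled. Its brighter probe, at chr15:74006791-74006850, read 2.66, 2.48 and 2.50 in pLUM replicates 1 to 3 and 4.73, 4.79 and 5.02 in pLB replicates 1 to 3. The pLB arrays were all above the pLUM arrays, and the spread within each line (SD 0.10 and 0.15, n = 3) was small beside the gap. The difference was 2.30 ± 0.16 (SE) on the log2 scale, or 4.91-fold (adjusted p = 2.35e-05). The probe printed above, which lies nearer the start of the transcript, read -4.51, -4.63 and -4.36 in pLUM and -3.02, -2.98 and -2.88 in pLB. That probe too was higher in pLB, by 2.91-fold (adjusted p = 0.000137), although the difference was 0.27 with no call after another background correction (normexp), under which the brighter probe differed by 2.35. CD276 kept its call with each array left out (2.21 to 2.36).

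VTCN1 encodes B7-H4, which inhibits T cells and is known from breast epithelium and its tumors. In pLUM its probe read -0.33, -0.18 and 0.22, and in pLB it read -7.72, -7.93 and -7.02, where no array was well above background. VTCN1 was thus near the 75th percentile in pLUM and at the floor of the array in pLB. It was at least 36.6-fold lower in pLB (adjusted p = 1.41e-06), a bound set by the lowest signal that counted as well above background. After normexp, which raises dim signals, the difference was -3.54 on the log2 scale and still called, so that the size of the bound holds for the deposited processed signals only. A further probe, for an alternative transcript, was well above background on 2 pLUM arrays and on no pLB array, with levels of -4.24, -4.67 and -5.31 in pLUM and -6.78, -6.03 and -6.27 in pLB, and was not tested. Its arrays did not overlap either, and the bound was at least 1.46-fold lower in pLB.

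PVR encodes CD155, an adhesion molecule of the nectin family. The brightest of its 3 probes (chr19:45166078-45166137) read -1.96, -1.92 and -1.63 in pLUM and -0.35, -0.21 and -0.52 in pLB. All pLB arrays were above all pLUM arrays, and the difference of 1.48 ± 0.18 (SE) was 2.78-fold (adjusted p = 0.000285). The probe printed above read -4.02, -3.35 and -3.61 in pLUM and -2.15, -2.24 and -2.49 in pLB, a 2.58-fold difference (adjusted p = 0.00119) that was not called after normexp (0.39 on the log2 scale). The last probe, toward the end of the transcript, read -4.67, -5.23 and -4.04 in pLUM and -3.83, -3.77 and -2.70 in pLB. It was higher in pLB by 2.33-fold (adjusted p = 0.0318), but lost this call without pLUM replicate 1 (1.21), pLUM replicate 2 (0.93) or pLB replicate 3 (0.85), with slide as a block (0.82) and by the methods' t-test, and its difference was -0.01 after normexp. The brightest probe kept its call in each of these fits.

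**Figure D2:**
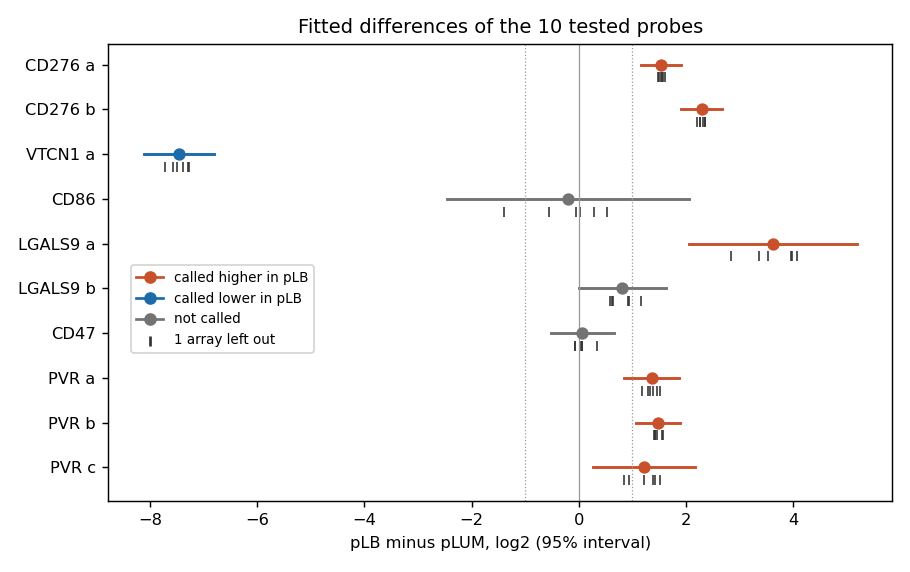
Fitted difference of pLB minus pLUM, on the log2 scale, for the 10 tested probes, with 95% intervals from limma; ticks below each point are the differences with 1 array left out, and dotted lines mark 2-fold. The CD276 and PVR points lie right of 1 and VTCN1 lies at -7.46, whereas the CD86 ticks run from -1.40 to 0.53.

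CD86, with CD80, is a costimulatory ligand of antigen-presenting cells that binds CD28 and CTLA-4. Its single probe read 2.04, 2.19 and 1.02 in pLUM and 0.60, 0.10 and 3.97 in pLB. pLB replicates 1 and 2 lay below all pLUM arrays and pLB replicate 3 lay above them, so that the lines overlapped. The difference was -0.19, with a 95% interval from -2.45 to 2.06 (adjusted p = 0.87), which spans more than 2-fold in both directions. Without pLB replicate 3 CD86 was called lower in pLB (-1.40, adjusted p = 0.018), and with any other array left out the difference was -0.56 to 0.53 with no call.

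The values of the CD86 probe on these arrays were shared by probes of other genes that hold the same repeat, a search chosen after the CD86 values were seen. A run of 11 alternating g and a bases, with g first and last, was found in 6 tested probes, named for CD86, HMBOX1, SPEN, VPS18, REP15 and SMARCA4. CD86 was higher on pLB replicate 3 than the mean of pLB replicates 1 and 2 by 3.62 on the log2 scale, and HMBOX1 by 3.83, SPEN by 3.82 and VPS18 by 3.18. REP15 and SMARCA4 differed in this way by 1.43 and 0.50, and the median over all tested probes was 0.17. Only 18 of all tested probes, or 0.0779%, had a difference as high as that of CD86. Over the 6 arrays the Pearson correlation with the CD86 probe was 0.98 for HMBOX1 and SPEN and 0.96 for VPS18, and 0.31 and 0.16 for REP15 and SMARCA4, all from the same hybridizations. In pLUM, replicate 3 was the lowest for CD86, HMBOX1, SPEN and VPS18. From replicate 1 to replicate 2 of each line, CD86 moved in the opposite direction to HMBOX1, SPEN and VPS18. Whether the CD86 probe read CD86 transcripts on these arrays was not tested.

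**Figure D3:**
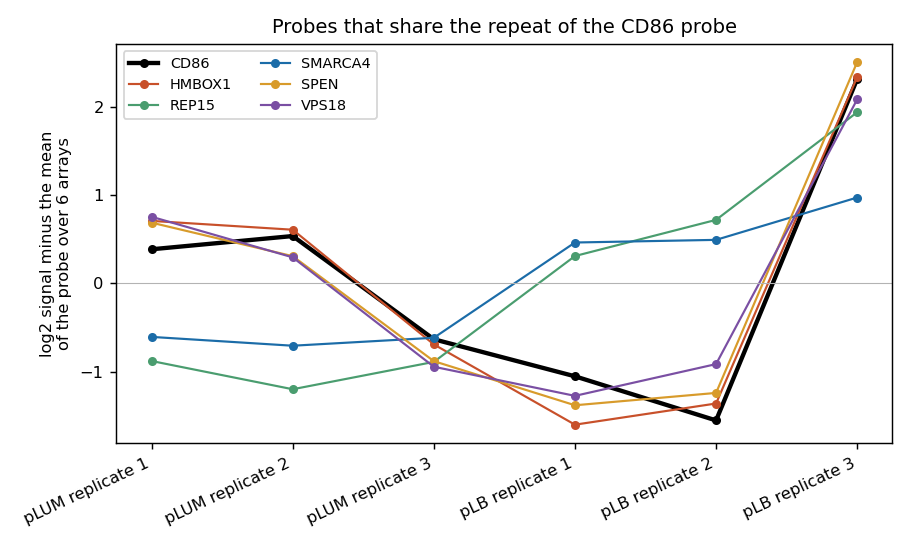
Signal of the 6 tested probes that hold the repeat, on each array, as the log2 signal minus the mean of that probe over the 6 arrays; lines join the values of a probe and imply no order of arrays. CD86, HMBOX1, SPEN and VPS18 lie on the same side of their means on each of the 6 arrays and peak on pLB replicate 3, whereas REP15 and SMARCA4 are above their means on all 3 pLB arrays.

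CD47, the "do not eat me" signal, read 0.71, 0.75 and 0.75 in pLUM and 1.07, 1.08 and 0.25 in pLB. The pLUM arrays lay close together between the pLB arrays, of which replicate 3 was the lowest of all 6. The difference was 0.07 with a 95% interval from -0.52 to 0.66 (adjusted p = 0.83), so that a 2-fold difference in either direction lay outside the interval. Without pLB replicate 3 the difference was 0.34 (adjusted p = 0.068), and without pLB replicate 1 or 2 it was -0.07.

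LGALS9 encodes galectin-9, a secreted and surface lectin that binds TIM-3 (HAVCR2). Its brighter probe, the second above, read -3.61, -4.69 and -4.63 in pLUM and -3.74, -3.71 and -3.04 in pLB. pLUM replicate 1 lay among the pLB arrays, and the difference of 0.81 (95% interval 0.01 to 1.62) was not called (adjusted p = 0.0738). It was called without pLUM replicate 1 (1.16, adjusted p = 0.013) and with scaling to spike-in controls (1.07), and was -0.07 after normexp. The first probe read -7.27, -7.62 and -6.39 in pLUM, where no array was well above background, and -4.37, -4.14 and -1.89 in pLB, where all were. That probe was at least 3.77-fold higher in pLB (adjusted p = 0.00242), with no call after normexp, where the difference was 0.27.

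The array files do not list the same genes for the LGALS9 probes, and which copies each probe binds was not tested. Among the transcripts that the array files list for the first probe are those of LGALS9, LGALS9B and LGALS9C, which are near-identical copies on chromosome 17, whereas only LGALS9 transcripts are listed for the second. A probe named for LGALS9C also lists LGALS9 transcripts. It read -3.12, -3.24 and -3.40 in pLUM and 1.70, 1.83 and 2.14 in pLB, and was 35.3-fold higher in pLB (adjusted p = 1.22e-06). Of the 3 probes, the difference was largest on the one named for LGALS9C and was not called on the one listed for LGALS9 alone. No probe of another name listed a transcript of the remaining members, as far as the files give RefSeq transcripts.

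CD274 and PDCD1LG2, the ligands of PD-1, and CD80 were not well above background on any array. CD274 read -7.45, -7.62 and -7.60 in pLUM and -7.60, -7.93 and -6.95 in pLB on the probe printed above, and -7.55, -7.77 and -7.77 in pLUM and -7.61, -6.25 and -7.06 in pLB on the other. PDCD1LG2 lay between -8.00 and -6.73 on its probes, and CD80 between -7.63 and -6.52. The lines overlapped on each of these probes, and a difference between lines was not detectable at this signal. The genes that flank CD274 and PDCD1LG2 among those tested, C9orf46 and KIAA1432, were measurable and called lower in pLB (-1.85 and -1.63).

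NT5E read -6.67, -7.55 and -7.54 in pLUM and -5.13, -5.27 and -5.69 in pLB on the probe printed above. All pLB arrays were above all pLUM arrays, but only 2 pLB arrays and no pLUM array were well above background, so that the probe was not tested. The bound was at least 1.01-fold higher in pLB, which sets no useful lower limit. The other probe read -6.42, -7.70 and -7.68 in pLUM and -5.60, -6.00 and -5.64 in pLB, again with no overlap, and was above background on no array. Without a filter on dim probes NT5E was called higher in pLB, as a value near the floor of the array.

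The promoter of CD274 is shown because interferon is known to induce this gene. The 250 bases before its start in RefSeq (GRCh38.p14, chr9:5450292-5450541, plus strand) hold a GAS motif (TTCNNNGAA, an interferon gamma element) and an IRF motif (GAAANNGAA), both searched on both strands and given in capitals, the IRF motif first and on the other strand.
CD274 promoter: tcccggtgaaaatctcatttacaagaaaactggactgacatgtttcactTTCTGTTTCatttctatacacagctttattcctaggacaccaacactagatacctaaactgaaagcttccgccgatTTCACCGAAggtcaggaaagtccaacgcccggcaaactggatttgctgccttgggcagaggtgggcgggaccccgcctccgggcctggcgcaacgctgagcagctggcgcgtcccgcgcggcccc

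Of 35116 promoters of the same length, 6.57% held the GAS motif and 6.88% the IRF motif, and of the 9 members with a promoter in the table, which left out PDCD1LG2, CD274 alone held either. The NF-kB motif, held by 5.21% of promoters, was found among these 9 in CD86, and the AP-1 motif (TGANTCA) and TATAAA in none of them. Matches are letters in a window and were not tied to binding.

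Genes that control PD-L1 were measured although PD-L1 was not. Of 16, 14 were tested. Of these 4, or 28.6%, were called higher in pLB and 0 lower in limma, near the 22.7% of all tested genes called higher, beside 23.0% called lower. In limma 2 were lower at an unadjusted p under 0.05, and 0 were called lower by the methods' t-test. The median difference was 0.36. Those called were SOCS1, a feedback inhibitor of JAK signaling (5.08-fold), CMTM6, which keeps PD-L1 on the surface (2.24-fold), and the interferon gamma receptor chains IFNGR1 (2.15-fold) and IFNGR2 (2.06-fold). SOCS1 read -4.10, -4.15 and -4.19 in pLUM and -2.04, -1.78 and -1.58 in pLB, with no overlap (adjusted p = 2.98e-05). JAK2 was not called (-0.37), and IRF1 and IRF2 were not tested. None of the 4 was called after normexp (log2 differences of 0.54 to 0.97), and IFNGR1 lost its call without pLB replicate 1 (0.99) and IFNGR2 without pLUM replicate 1 (0.92) or pLB replicate 1 (1.00).

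Other ligands of T and NK cell receptors were the list with the most calls. Of 20, 15 were tested. Of these 10, or 66.7%, were called higher in pLB and 1, or 6.67%, lower, beside 22.7% and 23.0% of all tested genes. The median difference was 2.73, or 1.34 with genes seen in 1 line only at their bounds. NECTIN3, an adhesion partner of PVR, was higher by 4.91, from -3.94, -4.18 and -4.29 in pLUM to 0.57, 0.62 and 1.12 in pLB (adjusted p = 2.39e-06). CEACAM1, a ligand of TIM-3, was higher by 4.60, VSIR (VISTA) by 2.73, ICOSLG by 1.16 and CD58, the ligand of CD2, by 2.34. Of the TNF superfamily, CD70 was higher by 3.23, TNFSF9 (4-1BB ligand) by 2.74, the receptor CD40 by 3.24 and TNFSF18 by at least 2.25-fold, and FGL1, a ligand of LAG3, was higher by at least 2.54-fold. These calls held with each array left out, whereas TNFSF18 and FGL1 were at 0.02 and 0.18 after normexp and ICOSLG was not called as the mean of its probes (0.72). TNFRSF14 (HVEM), the ligand of BTLA, was lower (-1.04, adjusted p = 0.00238), with no call without pLUM replicate 3 (-0.96), pLB replicate 1 (-0.95) or pLB replicate 2 (-1.00), after normexp (-0.95), with spike-in scaling (-0.79) or as the mean of its probes (-0.57). A dimmer probe of ICOSLG (0.28) and one of TNFRSF14 (-0.10) were not called.

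The receptors, which belong to immune cells, were mostly dim. Of 20, 10 were tested, with a median difference of 0.88, or 0.77 at the bounds. Of these 10, 4 were called higher in pLB and 1 lower, beside 22.7% and 23.0% of all tested genes. Under the filter that asks for all 6 arrays, 5 were tested, of which 2 were called higher and 1 lower. SIRPA, the receptor of CD47, was higher by 1.59 (adjusted p = 0.00038) and PDCD1 (PD-1) by 1.53 (adjusted p = 0.00077). TIGIT, which binds PVR, was at least 1.68-fold higher, and TNFRSF18 was higher by 1.23, but after normexp their differences were -0.09 and -0.27 and that of PDCD1 was 0.31. With dim signals set to the floor, TIGIT (0.75) and TNFRSF18 (0.85) were not called. KLRG1 was lower (-1.24), with no call without pLB replicate 1 (-1.00), after normexp (-0.89) or with spike-in scaling (-0.99). The leukocyte marker sums given above were higher in pLB, mostly through CD79A (without it, 0.937 to 1.27 in pLUM and 1.36 to 1.66 in pLB). The source of the marker and receptor signals in these sorted tumor cell lines was not tested.

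Around NT5E, of 19 genes of extracellular nucleotides and adenosine 11 were tested. Of these 4, or 36.4%, were called higher in pLB and 3, or 27.3%, lower, near the 22.7% and 23.0% of all tested genes, with a median difference of 0.11. ADORA2B, a receptor of adenosine, was not well above background in pLUM (-5.81, -7.24 and -5.87) and read 0.84, 0.68 and 0.13 in pLB, at least 61.2-fold higher (adjusted p = 1.03e-05). ADA, which converts adenosine to inosine, was higher by 2.87 (adjusted p = 8.12e-06) and PANX1, a channel that releases ATP, by 3.12 (adjusted p = 4.17e-06). Of the enzymes that act on extracellular ATP, ENTPD8 (-3.71), ENPP1 (-1.80) and ENTPD2 (-1.74) were lower in pLB and ENTPD3 was higher (1.01). ENTPD1 was not called (0.44), although another of its probes was lower by at least 2.99-fold. A further probe of ENTPD1 was not tested. It read -4.23, -4.78 and -5.61 in pLUM and -7.57, -7.93 and -6.93 in pLB, also with no overlap. ENTPD3 lost its call without pLUM replicate 2 (0.91), pLUM replicate 3 (1.02), pLB replicate 1 (0.77) or pLB replicate 2 (0.92), with median scaling (0.99) or spike-in scaling (1.26), by the methods' t-test after adjustment, and after normexp (0.16).

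Partners of CD47 in the control of engulfment were all tested, 9 of 9, with a median difference of 0.71. Of these 4, or 44.4%, were called higher in pLB and 1, or 11.1%, lower, beside 22.7% and 23.0% of all tested genes. QPCT, a glutaminyl cyclase, was at least 6.54-fold higher, whereas QPCTL, the related enzyme that modifies CD47, was not called (-0.16). CALR (calreticulin), an "eat me" signal, was higher by 1.24 (adjusted p = 0.000287) with 6.35 to 6.50 in pLUM and 7.65 to 7.68 in pLB, and its receptor LRP1 was higher by 2.61 and MFGE8, a bridging protein, by 2.35. CD24, another signal against engulfment, was lower (-1.50, adjusted p = 0.00111). The array files place its probe on chromosome Y, and which copies that probe binds was not tested. LRP1, MFGE8 and QPCT were not called after normexp (0.66, 0.51 and 0.74), CALR was not called with quantile normalization (0.90), and LRP1 was not called when probes had to be well above background on all 6 arrays, which left another of its probes (0.39).

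Of 13 genes beside LGALS9 that encode galectins or, as LGALS3BP, a protein that binds them, 8 were tested, with a median difference of 2.33. Of these 8, 5 were called higher in pLB and 2 lower, beside 22.7% and 23.0% of all tested genes. LGALS7, a galectin of stratified epithelium, was higher by 7.87, from -3.21, -3.56 and -2.76 in pLUM to 4.87, 4.62 and 4.60 in pLB (adjusted p = 6.13e-07), and cannot be told from its near-identical copy LGALS7B. LGALS1 was higher by 2.60, LGALS8 by 2.07 (-0.26 on a dimmer probe, and 0.90 as the mean of its probes, neither called), LGALS9C by 5.14 as above, and LGALS3BP by 2.75. LGALS4 was lower (-1.91). LGALS12 was called lower (-1.03, adjusted p = 0.032), with a bound of at least 1.46-fold. It lost this call with any array left out except pLB replicate 3, and in most other alternatives. Among these was the fit with dim signals set to the floor (-0.55).

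**Figure D4:**
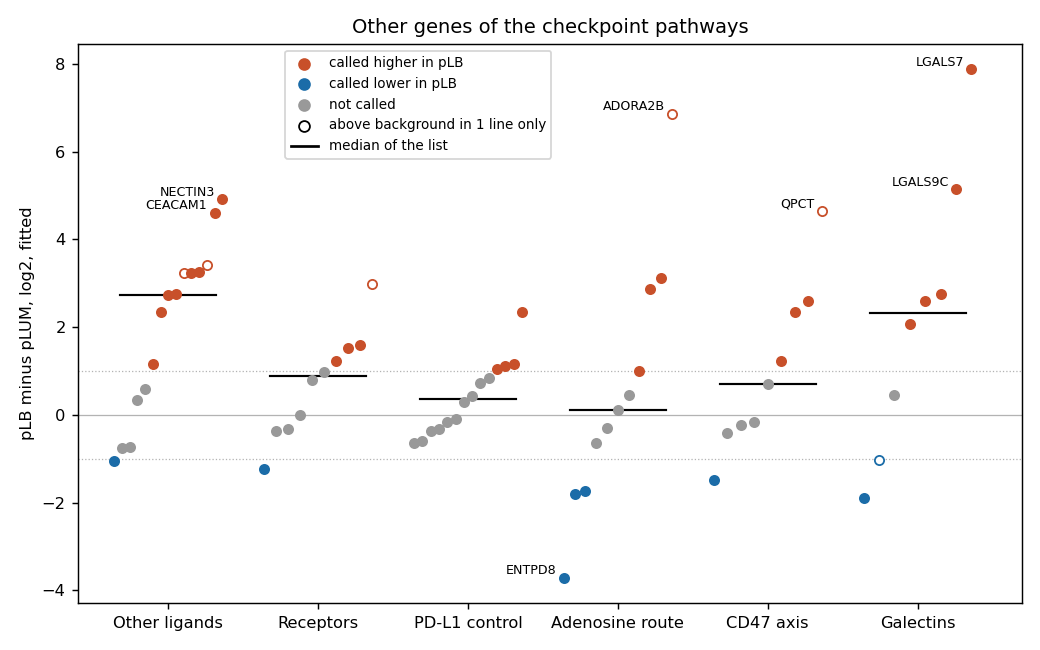
Fitted difference of pLB minus pLUM, on the log2 scale, for the 67 tested genes of the 6 other lists, 1 point a gene; orange is called higher in pLB, blue called lower and gray not called, open points were well above background in 1 line only, dotted lines mark 2-fold and black lines are list medians. Of these genes 31 were called higher and 8 lower, and the medians of the other ligands (2.73) and galectins (2.33) are the highest.

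Over the 6 lists, 31 of 67 tested genes, or 46.3%, were called higher in pLB and 8, or 11.9%, lower, beside the 22.7% and 23.0% of all tested genes. Without pLB replicate 1 the counts were 29 and 5. Of the 67 genes, 6 were well above background in 1 line only, and could pass only by differing. These were TNFSF18, FGL1, TIGIT, ADORA2B, QPCT and LGALS12. Under the filter that asks for all 6 arrays, 23 list genes were called higher and 7 lower. Of all 14729 genes tested under that filter, 3041 were called higher and 3026 lower. The lists had been chosen with results of these data known, and the counts describe these lists only.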

How the data were processed

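Per the file headers, the deposited files come from Agilent Feature Extraction 10.10.1.1 and hold a processed intensity per spot on a linear scale, which the authors had corrected for background and had not yet scaled between arrays. Per the labels Partek was used downstream, but those values were not used here. Deposited intensities were put on a log2 scale after division by the 75th percentile of the array, which was 449 to 869. Control spots were dropped, as were spots flagged as outliers (296 to 387 on an array). No spot was saturated, and 21285 to 22775 probes per array were well above background. The number of arrays limits the precision. The test was limma's (version 3.58.1, under R 4.3.3), with lmFit and eBayes, line as the only term and no block, and was tested on simulated data. A probe seen on no array of a line has its fold as a bound, from the lowest signal that was well above background on each dim array.

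All 10 members are named, and other list genes mostly where called. The members and lists were chosen with earlier results of these data known. Older symbols of the files were matched by name (VSIR is C10orf54, NECTIN3 is PVRL3). Promoters are from RefSeq. Alternatives changed the background correction, the scaling, the filter on dim probes, the threshold, the test, the probe rule or the block, or left out 1 array. Normexp was run with an offset of 50 added to the corrected signals, and the part of the offset in its results was not tested. The methods' t-test was run on the same values. Equal replicate numbers did not pair the arrays, as the deviations of same-numbered arrays correlated at -0.265, -0.095 and -0.217. Of the genes that control PD-L1, 1 value is not reported here.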

Additional observations from a re-analysis of the deposited data

How the results depend on the processing

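Members called higher in pLB numbered 2 and lower 1, with 7 probes called, and most alternatives left these counts within 1.5 times. After normexp 3 member probes were called, and 18 other pathway genes were called higher and 5 lower. The median over all probes was then -0.26, against -0.01 in the reported fit. Over all 17670 tested genes, 2565 were called higher and 3101 lower after normexp, against 4016 and 4068 in the reported fit. The sign changed, with differences smaller than their SE, for TIGIT (-0.09, SE 0.40), TNFRSF18 (-0.27, SE 0.34) and the last PVR probe (A_32_P72110, -0.01, SE 0.37). Spike-in scaling gave a median of 0.25 and left 5 other pathway genes called lower, and without a fold threshold 13 were. Of all tested genes, 4850 were called higher and 3223 lower with spike-in scaling, and 5729 and 5480 without a fold threshold. With probes well above background on all 6 arrays no member was called lower in limma (0 also at an unadjusted p under 0.05), since VTCN1 was then not tested. With the usual filter the methods' t-test called 1 lower. Leaving out each array gave 2 to 3 members higher, 1 to 2 lower, 6 to 7 member probes, 29 to 31 other pathway genes higher and 5 to 8 lower. The replicate block, though the numbers did not pair the arrays, gave 2 and 1 members, 7 probes and 31 and 7 other genes; LGALS12 lost its call. The slide block gave a median over all probes of -0.11, and 2 and 1 members and 6 probes. Over the 6 tested members, 109 of 113 values under alternatives kept their side of the threshold, and the remaining 4 were gains of a call for LGALS9 (spike-in scaling, mean of its probes, without pLUM replicate 1) and CD86 (without pLB replicate 3). Signals near the floor of the arrays limit CD274, PDCD1LG2, CD80 and NT5E. The causes were not tested.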
